A study of Mus musculus with 4 samples.

Results

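Open chromatin was described at 8 oncofetal genes: Hmga1, Hmga2, Igf2bp1, Igf2bp2, Igf2bp3, Lin28a, Lin28b and Plag1. Genes of this kind are active in embryonic tissue and in many tumours, and several of the 8 are largely silent in most adult organs. All 8 were found by name among the 21887 protein-coding genes of a RefSeq table for the build GRCm38.p6. The data came from bulk ATAC-seq, in which the Tn5 transposase cuts and tags stretches of DNA that are not packed into nucleosomes. The material was mouse salivary gland organoids (mSGOs), grown in Matrigel from submandibular glands of C57BL/6 mice in a medium with Wnt3a and R-spondin1, and not irradiated. Passage 1 and passage 2 are each represented by 2 samples, 1 labelled with an age of 12 weeks and 1 with an age of 3 months. The labels give no other difference between the groups and do not name the mouse of each sample. The study's methods give 4 female mice, and organoids of this kind hold ductal and stem/progenitor cells of the gland.

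All samples share 1 deposited list of 32011 distinct open regions, so no region has a value by sample, passage or age. It was taken to be the consensus list of all samples, but its number of regions is not the one in the study's methods, so a gene or share given here could differ in another version of the list. Spread between replicates and depth per sample are unknown, and a gene without a region is a gene without one in this list, not a gene shown to be closed. No test between conditions or genes was made. Each region carries a fold, its signal over the local background at the strongest summit, an IDR score of at most 1000 that ranks how well replicates reproduce it, and −log10 values for p and for q, each written by the peak caller that the authors ran. The labels' processing notes name GRCm39, but regions ran past the GRCm39 end of 8 of 21 chromosomes. A region midpoint lay within 1 kb of 5.03% of the protein-coding 5′ ends of a GRCm39 annotation, against 38.3% of those of the GRCm38.p6 table. Coordinates are therefore given as GRCm38. A region was listed at the 5′ end of 9 of 11 markers of salivary epithelium and its progenitors, among them Epcam, Krt5, Krt14, Krt8 and Sox9. Krt7 and Trp63 had none there, the nearest lying 24.0 and 59.3 kb from the 5′ end. At the 5′ end, 1 of 6 immune markers (Cd68), 0 of 6 endothelial markers and 0 of 6 fibroblast markers had a region. However, some markers had a distal region, over 1 kb from every protein-coding 5′ end and nearest to the gene's own. Such a region was listed for 9 of 11 epithelial, 1 of 6 immune, 6 of 6 endothelial and 3 of 6 fibroblast markers. The share among all protein-coding genes was 40.3%.

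The 8 genes belong to a connected developmental circuit. LIN28A and LIN28B are RNA-binding proteins that keep precursors of the let-7 microRNA from maturing. Mature let-7 in turn represses the mRNAs of Hmga2, of Lin28a and Lin28b and of the IGF2BP proteins, which bind mRNAs and affect their stability and translation. HMGA1 and HMGA2 are small proteins that bind AT-rich DNA and bend it, and PLAG1 is a zinc-finger transcription factor that activates Igf2. In the salivary gland, PLAG1 and HMGA2 are best known as the genes rearranged in pleomorphic adenoma, a benign tumour.

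The promoters of the 2 HMGA genes are shown because a listed region reaches into that of Hmga2 and none into that of Hmga1. Each runs from 250 bases before to 50 bases after the start in RefSeq, on GRCm38.p6, and capitals mark bases inside a listed region. That of Hmga2 lies at chr10:120476420-120476719 on the minus strand and that of Hmga1 at chr17:27556324-27556623 on the plus strand.
Hmga2: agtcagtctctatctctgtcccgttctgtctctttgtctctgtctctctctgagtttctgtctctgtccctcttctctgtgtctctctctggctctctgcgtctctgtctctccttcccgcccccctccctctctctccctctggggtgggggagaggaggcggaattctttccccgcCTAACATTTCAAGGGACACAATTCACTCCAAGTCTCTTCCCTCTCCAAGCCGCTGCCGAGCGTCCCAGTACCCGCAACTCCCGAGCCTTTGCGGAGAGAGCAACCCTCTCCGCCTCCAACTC
Hmga1: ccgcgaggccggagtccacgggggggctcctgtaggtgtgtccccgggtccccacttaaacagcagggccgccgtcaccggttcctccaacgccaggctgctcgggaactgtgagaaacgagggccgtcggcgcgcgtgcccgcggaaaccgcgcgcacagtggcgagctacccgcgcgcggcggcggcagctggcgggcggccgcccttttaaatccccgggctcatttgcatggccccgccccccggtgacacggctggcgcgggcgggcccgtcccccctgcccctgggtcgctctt
In Hmga2, 122 of the 300 bases, from base 179 to the end of the printed stretch, lay in a region. None of the 300 bases of Hmga1 did. The let-7 family is shown for the seed, bases 2 to 8, through which it recognises its targets. RefSeq mature sequences are printed with the seed in capitals.
let-7a-5p: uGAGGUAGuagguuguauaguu
let-7g-5p: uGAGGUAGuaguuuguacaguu
let-7i-5p: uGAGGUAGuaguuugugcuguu
miR-98-5p: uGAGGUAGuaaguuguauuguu
The same seed was carried by 11 of the 23 mature entries listed for the 12 let-7 genes, in 9 different sequences. These 11 were all the entries with names ending in 5p, and the names of all others end in 3p. For Mirlet7a-2 only a 3p entry was listed.

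Regions were sorted in 3 ways. A region was at the 5′ end where its midpoint lay within 1 kb of the gene's outermost 5′ end, in the gene where its midpoint lay between the gene's ends, and distal where no protein-coding 5′ end lay within 1 kb and the closest one was that of the gene. A distal region can lie inside or outside the gene. In all, 21 distinct regions belonged to the 8 genes in 1 of these ways, and 12 of them (57.1%) to Hmga2. A region at the 5′ end was listed for Hmga2 and Plag1, 2 of the 8 genes (25.0%), and for 8206 of 21440 protein-coding genes (38.3%, 95% Wilson interval 37.6 to 38.9, which covers counting error only). A region in the gene was listed for 5 of the 8 genes (62.5%) and for 39.4% of protein-coding genes (interval 38.8 to 40.1). A distal region was listed for 4 of the 8 (50.0%) and for 40.3% (interval 39.7 to 41.0). Igf2bp1, Lin28a and Lin28b had no region of any kind. How many of all protein-coding genes lack a region in all 3 ways was not counted, so 3 of 8 cannot be called many or few.

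**Figure D1:**
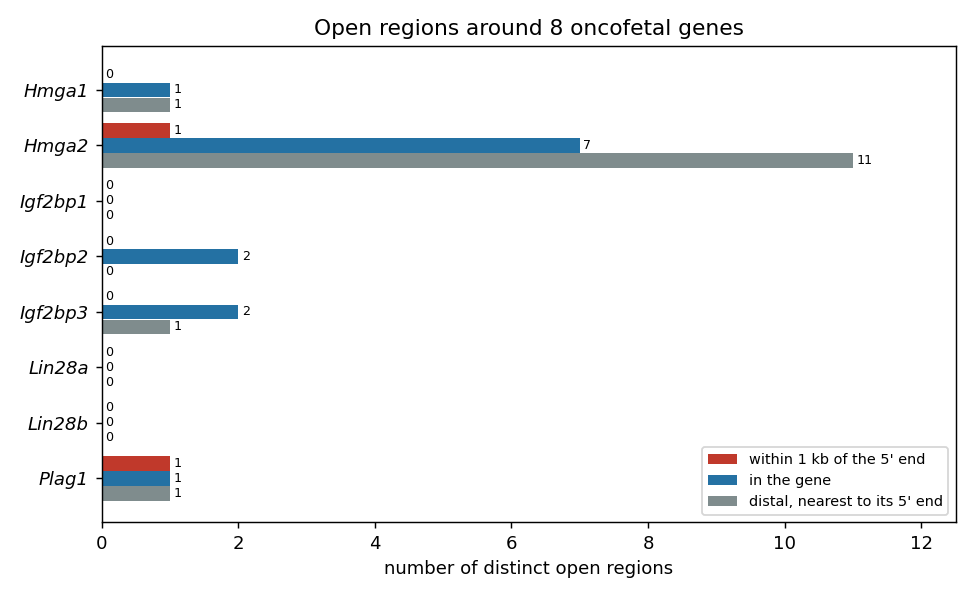
Number of distinct open regions (x axis) for each of the 8 genes (y axis), with red bars for regions within 1 kb of the 5′ end, blue bars for regions in the gene and grey bars for distal regions, a region in the gene being counted also as distal where it is both. Hmga2 has 7 regions in the gene and 11 distal ones, and no other gene has more than 2 of either.

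Hmga2, which encodes the AT-hook protein of embryonic and progenitor cells, had by far the most regions of the set. Its region at the 5′ end lay at chr10:120476025-120476541, was 517 bp wide and had its midpoint 186 bp inside the gene, which is transcribed from the minus strand. It had a fold of 5.80, an IDR score of 870 and 2 summits, the stronger 101 bp downstream of the start. By fold it was a modest region, since 72.7% of all regions had at least as high a fold. The median was 7.90 (quartiles 6.05 and 10.6) for the 8178 regions at protein-coding 5′ ends.

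Inside Hmga2, 6 further regions lay downstream of the start. A group of 4 spanned 6.73 kb, from 47.5 to 54.2 kb into this gene of 115.2 kb. The strongest of them, at chr10:120421961-120422481, had a fold of 12.2 and an IDR score of 1000, and 9.34% of all regions had at least that fold. The other 3 of the group had folds of 5.72, 5.19 and 3.25. The region with the fold of 5.72 was the widest of the 12, at 974 bp with 5 summits, and lay at chr10:120428466-120429439. The remaining 2 lay 92.4 and 98.9 kb into the gene, where the gene 1700006J14Rik overlaps Hmga2, with folds of 4.58 and 9.33. The latter, at chr10:120377264-120377857, had an IDR score of 1000. The inside of Hmga2 thus held 2 regions with the top score, both far from the start.

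Upstream of Hmga2, the list held no region for 128.3 kb from the 5′ end. Then 5 regions followed within 31.6 kb, at 128.3, 148.0, 150.1, 151.8 and 159.8 kb upstream. Their folds, in that order, were 5.40, 5.49, 5.02, 10.8 and 17.9. The farthest, at chr10:120636026-120636563, had the highest fold of the 12 and stood at rank 276 of all 32011 regions by fold. Its midpoint lay 188 bp from the 5′ end of the long noncoding RNA gene 4930471E19Rik, and the next strongest, at chr10:120627996-120628516, lay 7851 bp from the same end. By protein-coding genes alone, all 5 were nearest to Hmga2, since Msrb3, the next protein-coding gene on that side, starts 422.5 kb away and Llph, on the other side, 249.4 kb away.

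The assignment of distal regions to Hmga2 rests on counting protein-coding genes alone. With 5′ ends of genes of every type, 0 of the 11 distal regions were nearest to Hmga2, and the number over the 8 genes fell from 14 to 3. Then 4 were nearest to the noncoding RNA gene 4930471E19Rik, 4 to Mir763, a microRNA gene inside Hmga2, 2 to the noncoding RNA gene 9230105E05Rik and 1 to the pseudogene Gm24298. Which gene a region acts on was not measured.

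**Figure D2:**
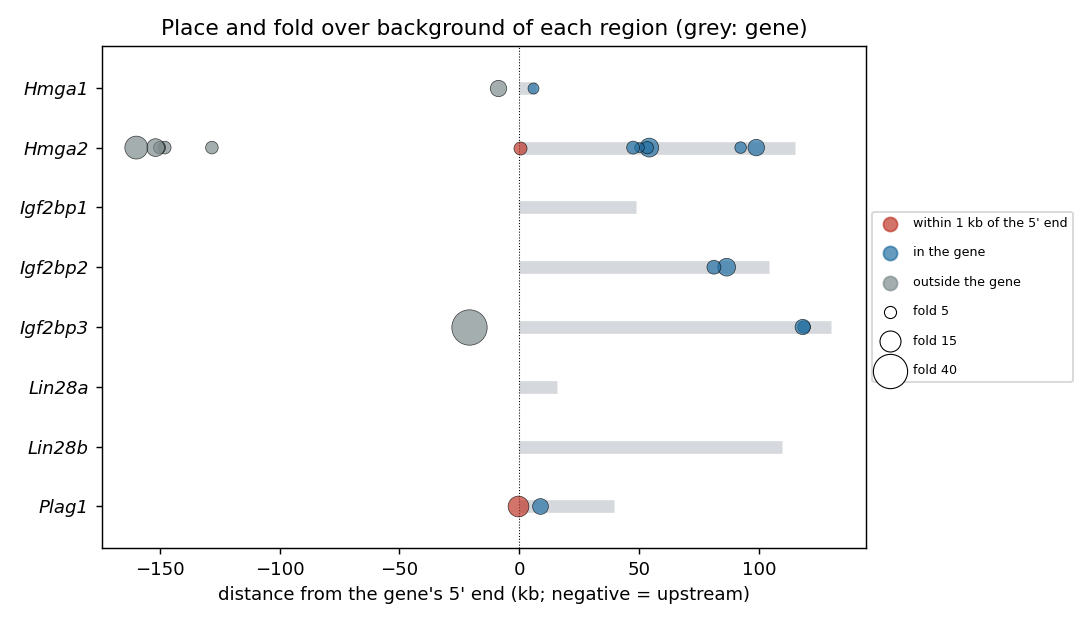
Distance of each region's midpoint from the gene's 5′ end in kb (x axis, upstream to the left) for the 8 genes (y axis), with the gene drawn in grey, the area of a point in proportion to the fold, and colours for regions at the 5′ end (red), in the gene (blue) and outside it (grey). Hmga2 shows 5 regions between 128.3 and 159.8 kb upstream and 6 between 47.5 and 98.9 kb inside the gene, and the rows of Igf2bp1, Lin28a and Lin28b are empty.

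Hmga1, the paralog that proliferating cells commonly express, had no region at either of its 2 RefSeq start sites, which lie 30 bp apart. The region nearest to its 5′ end lay 5726 bp downstream, near the far end of this gene of 7.10 kb, at chr17:27562142-27562457. It had a fold of 4.07 and an IDR score of 573, and 97.7% of all regions had at least that fold. Its midpoint was nearer to the 5′ end of the neighbour AI413582, at 3428 bp, and it therefore counted as in Hmga1 but not as a distal region of Hmga1. A stronger region lay 9082 bp upstream of Hmga1, at chr17:27547266-27547718, with a fold of 9.13 and an IDR score of 1000. AI413582 itself had a region at its 5′ end, and Grm4, on the other side, had none.

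No region stood at the 5′ end of any of the 3 IGF2BP genes, while 2 held regions inside the gene and 1 had a distal region. Igf2bp1, the member best known from embryonic tissue, had none in its 48.8 kb and none assigned to it, and the nearest region in the list lay 12077 bp upstream, at chr11:96017634-96018407. The 5′ end of Gip was closer to it, at 6511 bp. Igf2bp2, which remains active in several adult tissues, held 2 regions, 81.2 and 86.6 kb into a gene of 104.3 kb. The one farther in, at chr16:22076471-22076989, had a fold of 10.7 and an IDR score of 1000, and the other, at chr16:22081952-22082201, a fold of 6.57 and a score of 785. Both were nearer to the 5′ end of Senp2 (67298 and 72645 bp) than to that of Igf2bp2, so that Igf2bp2 had 0 distal regions.

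Igf2bp3 likewise held a pair of regions near its far end, 118.3 and 118.9 kb into a gene of 130.3 kb, with folds of 8.01 and 5.20. They lay at chr6:49096913-49097420 and chr6:49096412-49096820, in a stretch that Malsu1 shares with Igf2bp3 in the gene table, and were nearest to the 5′ end of Malsu1. The only region nearest to the 5′ end of Igf2bp3 lay 21.1 kb upstream, at chr6:49236419-49236640. It was the strongest of all 21, with a fold of 42.7, a −log10 p-value of 549, rank 11 of all regions by fold and rank 16 by p-value. It was also narrow, at 222 bp with 1 summit, against a median width of 388 bp for the 23756 regions over 1 kb from protein-coding 5′ ends.

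Neither LIN28 gene, which encode the proteins that hold back let-7, had a region at the 5′ end, in the gene or nearest to its 5′ end. For Lin28a, a gene of 15.9 kb, the nearest region lay 18.3 kb downstream of the start, at chr4:134000616-134001184 with a fold of 8.48. Its midpoint was 57 bp from the 5′ end of the neighbour Dhdds, which encodes an enzyme of dolichol synthesis. Lin28a lay in a densely marked neighbourhood, with 39 regions within 500 kb of its 5′ end. A region stood at 17 of 31 other protein-coding 5′ ends within that distance, and at 38.3% of all protein-coding 5′ ends. For Lin28b, a gene of 109.7 kb, the nearest region lay 91.5 kb upstream, at chr10:45577698-45577936, 3 bp from the 5′ end of Hace1, which encodes a ubiquitin ligase, and had a fold of 5.79. Around Lin28b the list was sparse, with 8 regions within 500 kb, where protein-coding genes had a median of 19 (quartiles 11 and 27). The curated RefSeq start of Lin28b lies 16.1 kb inside the outermost 5′ end, and no region lay within 1 kb of it either.

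Plag1 had a region at its 5′ end, but on the side of another gene. The region lay at chr4:3938494-3939068, with its midpoint 351 bp upstream of the 5′ end of Plag1 and 59 bp from that of Chchd7, a gene of a mitochondrial protein that starts 410 bp away on the opposite strand. It was strong, with a fold of 14.7, an IDR score of 1000 and 3 summits, and 3.52% of all regions had at least that fold. Whether it belongs to 1 of the genes or to both cannot be told apart by position. Inside Plag1, 1 region lay 8657 bp from the 5′ end, at chr4:3929657-3929889, with a fold of 8.50 and an IDR score of 948, and nearest to Plag1. Of the paralogs of Plag1, Plagl2 had a region at the 5′ end (fold 4.33), while for Plagl1 the nearest lay 9.57 kb from it.

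The median fold of the 21 regions was 6.57 (quartiles 5.20 and 10.7, range 3.25 to 42.7), and that of all 32011 regions was 7.11 (quartiles 5.70 and 9.32), so that the quartiles of the 21 lay farther apart. An IDR score of 1000 was given to 9 of the 21 (42.9%) and to 45.1% of all regions. The 12 regions of Hmga2 had a median fold of 5.61 (quartiles 5.15 and 9.69) and a median width of 519 bp, against 402 bp for all regions. At Hmga2, 4 of the 12 had the top IDR score, and the folds of the 8 others ran from 3.25 to 5.80. Among the 16006 regions with the lowest q-values, 10 of the 21 regions were left, 4 of them at Hmga2, and the region at the 5′ end of Hmga2 was not among them.

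**Figure D3:**
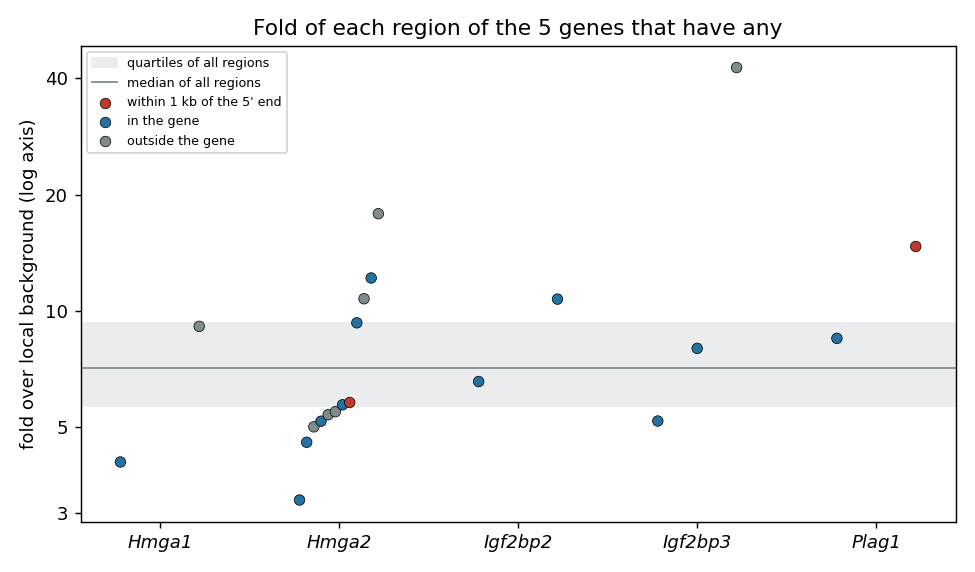
Fold over the local background (y axis, log axis) of each of the 21 regions, by gene (x axis) and coloured by place, with the band showing the quartiles (5.70 and 9.32) and the line the median (7.11) of all 32011 regions; points are ordered by fold within a gene. Of the 12 regions of Hmga2, 6 lie below the band and 4 above it, and the region upstream of Igf2bp3, at 42.7, is the highest.

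Counts were also set against the length of the gene and the distance to its neighbours. Hmga2 held 0.608 regions per 10 kb of gene, Plag1 0.252, Igf2bp2 0.192, Igf2bp3 0.154, and the short Hmga1 1.41 from a single region. At least 7 regions in the gene, the number of Hmga2, were found in 1.50% of all protein-coding genes and in 4.24% of the 1131 genes whose length was within 1.25 times that of Hmga2. At least 11 distal regions were found in 1.04% of protein-coding genes and in 5.58% of the 949 genes with a similar stretch, that is, the sequence nearest to the gene's 5′ end, which is 336.0 kb long for Hmga2. Among genes with a length similar to that of Lin28b, 29.5% of 1223 held no region, and for Igf2bp1 this share was 44.0% of 2008 and for Lin28a 60.6% of 2568. A gene with no region inside was thus no rare case at these lengths. Among genes with a similar stretch, nearest to their 5′ end, 39.3% had no distal region for Lin28b, 59.4% for Igf2bp1 and 70.6% for Lin28a. The 2 regions inside Igf2bp2 and the 2 inside Igf2bp3 were matched or exceeded by 43.7% of 1253 and 46.9% of 1007 genes of similar length.

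**Figure D4:**
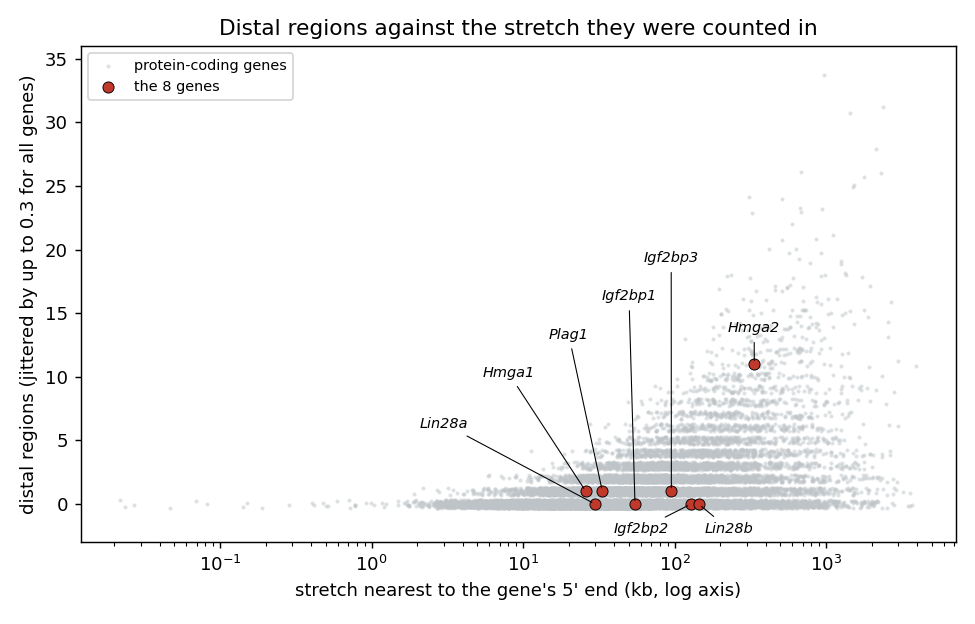
Number of distal regions (y axis) against the stretch nearest to the gene's 5′ end in kb (x axis, log axis) for protein-coding genes (grey points, moved at random by up to 0.3 upwards or downwards) and the 8 genes (red points, unmoved). Hmga2, with 11 distal regions in 336.0 kb, lies high among genes of its stretch, and the 7 others have 0 or 1.

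RefSeq promoters were given for 6 of the 8 genes, all but Igf2bp1 and Plag1. Their CpG content varied widely. Hmga2, the only one of the 6 with a region within 1 kb of its start, had 12 CpG in 300 bases, while Igf2bp2 had 47, Hmga1 40 and Igf2bp3 25, with no region. Lin28a had 10 and Lin28b 8. Across all 32851 promoters of the table, those with a region within 1 kb had a median of 21 CpG (quartiles 14 and 29) and those without a median of 4 (quartiles 2 and 10). Among promoters whose CpG count lay within 3 of that of Igf2bp2, Hmga1 and Igf2bp3, 53.5%, 62.6% and 69.8% had a region. The corresponding share was 39.0% for Hmga2, 28.1% for Lin28a and 18.5% for Lin28b.

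**Figure D5:**
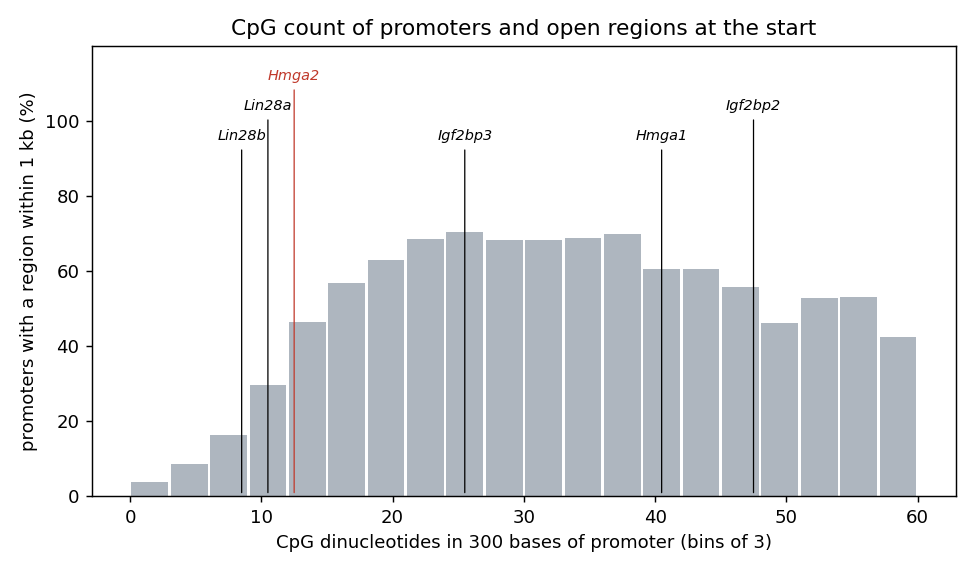
Share of RefSeq promoters with a region within 1 kb of the start (y axis, percent) by the number of CpG dinucleotides in 300 bases (x axis, bins of 3, drawn where a bin holds at least 20 promoters), with the counts of the 6 genes marked, Hmga2 in red because it has a region. Hmga1 (40 CpG) and Igf2bp2 (47 CpG) have no region in bins where 60.5% and 55.7% of promoters have one, and Hmga2 (12 CpG) has one in a bin where 46.6% do.

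The promoters were also searched on both strands for short motifs of some factor families that the study names for these organoids, and for AP-1. FOX motifs, also named there, were not searched. The KLF motif CACCC occurred 3 times in Lin28a and once each in Hmga2, Igf2bp2 and Igf2bp3, and it is in 57.5% of all promoters. The NF-Y motif CCAAT occurred in Igf2bp3 and Lin28b (37.4% of promoters), and the AP-2 motif GCCNNNGGC in Hmga1 and Lin28a (16.6%). The SOX motif ACAAAG occurred in Hmga2 (18.7%). In Hmga2, CACCC began 106 bases and ACAAAG 219 bases before the start, both outside the part that lay in a region. The TEAD motif GGAATG (14.7%), the RUNX motif TGTGGT (16.8%) and the AP-1 motif TGANTCA (7.81%) occurred in none of the 6 promoters. No match overlapped one of another motif, and the sequence of the distal regions was not analysed here.

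Genes that act with the 8 were described in the same way, beside the 38.3% of all protein-coding genes with a region at the 5′ end. Among 9 genes that process let-7 or work with LIN28, a region stood at the 5′ end of 6: Drosha (fold 17.6), Tut7 (11.2), Dgcr8 (9.79), Dicer1 (6.92), Xpo5 (6.75) and Ago2 (4.51). Of these 6, Tut7 had 4 distal regions, Ago2 had 1, and Xpo5 held 1 in the gene. Drosha, Dgcr8, Xpo5 and Dicer1 make up the general microRNA pathway, and TUT7 adds uridines to let-7 precursors. Tut4, Dis3l2 and Trim71, the other 3, had none, the nearest lying 58.8, 119.1 and 11.4 kb from the 5′ end, although Dis3l2 held 1 region in the gene, and Trim71 held 2 and had 3 distal ones. The 12 let-7 genes had no region within 1 kb of the hairpin, and the nearest lay between 2.62 kb (Mirlet7i) and 39.0 kb (Mirlet7f-2) away, with a median of 7.58 kb. A hairpin is cut from a longer transcript, so that these distances do not refer to the start of that transcript.

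In the IGF axis, a region at the 5′ end was listed for 2 of 6 genes (33.3%), near the 38.3% of all protein-coding genes. These 2 were the receptor genes Igf1r (fold 4.28) and Insr (8.07). Igf1r held 15 regions in its 281.4 kb and had 9 distal ones, and Igf2r, which encodes the receptor that clears IGF2, held 5 and had 6 distal ones. The growth factor gene Igf1 had no region at the 5′ end but held 2 and had 3 distal ones. The other growth factor gene, Igf2, and its imprinted neighbour H19 had no region at the 5′ end or in the gene, with the nearest 229.3 and 140.7 kb away. Of 7 other genes of fetal tissue and tumours, Tpbg alone had a region at the 5′ end (fold 9.07) and 3 distal ones. Mycn had 2 distal regions, Peg10 had 1, and Gpc3 held 2 in its 341.5 kb and had 1 distal one. Afp, the fetal serum protein, Sall4, a factor of pluripotent cells, and Dlk1 had 0 regions of any kind.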

How the data were processed

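Bulk ATAC-seq libraries of 4 mSGO samples were sequenced by the authors as 75 bp paired-end reads, aligned, and called with the ENCODE ATAC-seq pipeline, with 1 consensus peak file from all samples. The pipeline version and filters are not given in the sources used here, and the submitters' processing notes name HOMER and GRCm39. The deposited list gives an IDR score per region, and per summit a fold (ratio) over the local background and −log10 values (p-value, q-value), as the authors' caller wrote them. Depth per sample is unknown.

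From these, 69545 lines were joined into 32011 distinct regions, each with the values of its strongest summit. Gene positions came from the GRCm38.p6 RefSeq table. Strand came from the RefSeq promoter table of that build (17492 protein-coding genes, 6 of the 8 genes) and otherwise from the GENCODE annotation of GRCm39, matched on name and chromosome without using its coordinates. The 447 protein-coding genes without a strand were left out, and 21440 remained. The 2 sources differed for 125 of 22110 genes with both. Only counts and values are given, beside those of all protein-coding genes, with 95% Wilson intervals. Exons and introns were not analysed here. The sorting of regions was tested on simulated data.

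The 8 genes, the lists of related genes and the rules were chosen with earlier results of these data known. All 8 genes were named. Of their regions, those at the 5′ end and the strongest in the gene and distal were named, with the 5 strongest of Hmga2, and others were named after their values were seen. Related genes were named for a region at the 5′ end, or for its absence where fewer, and for most distal regions. Further genes among them were named after their values were seen. Other distances, overlap, stricter sets of regions, single lines, genes of every type and other sources of strand or start were tried. Scripts ran in Python 3.11.15 with pandas 2.3.3, numpy 2.4.6, matplotlib 3.10.9 and scipy 1.17.1.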

Additional observations from a re-analysis of the deposited data

How the results depend on the processing

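No paired analysis was possible because a single pooled list stands for all 4 samples, and for the same reason no sample could be left out in turn. Depth is unknown, which limits every statement that a region is missing. Of the 8 genes, 2 again had a region at the 5′ end with a distance of 500 bp or 2 kb, any overlap, strand from GENCODE only and any start of the promoter table. A region in the gene was again listed for 5 with every line, strand from GENCODE only and any overlap, which raised the share of all protein-coding genes to 51.4%. The alternatives for strand and start were chosen after seeing the data.

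Stricter sets lowered the counts by construction, since fewer regions enter. Among the 16006 regions with the lowest q-values, 1 gene (Plag1) had a region at the 5′ end, 5 regions lay in the genes and 7 were distal, and the median fold of the regions left was 10.8. Among the 14422 regions with an IDR score of 1000, 1 gene had a region at the 5′ end, 3 genes held a region, 4 regions lay in the genes and 6 were distal. In these sets, 25.9% and 24.0% of all protein-coding genes were marked at the 5′ end and 25.4% and 23.4% held one in the gene. Counting every line gave 36 in the genes and 32 distal, since each summit has a line. With 5′ ends of genes of every type, 3 distal regions were left, and Hmga2 had 0.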

Other observations

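Within 500 kb of Hmga2, 4 of 5 other protein-coding 5′ ends had a region, and 28 regions lay in that window. For Hmga1 it was 4 of 14, for Igf2bp1 4 of 25, for Igf2bp2 4 of 9, for Igf2bp3 5 of 17, for Lin28b 2 of 3 and for Plag1 6 of 9. The number of regions in these windows was 15 for Hmga1, Igf2bp1 and Igf2bp2, 17 for Igf2bp3 and 19 for Plag1. Of all protein-coding 5′ ends, 38.3% had a region. Over protein-coding genes, the median number of regions in such a window was 19 (quartiles 11 and 27).

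A microRNA gene lay inside 2 of the 8 genes, Mir763 in Hmga2, 28.4 kb from its 5′ end, and Mir3063 in Igf2bp1. The nearest region was 19.1 kb (19097 bp) from Mir763 and 54.7 kb (54684 bp) from Mir3063.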
